A study of Mus musculus with 12 samples.

Results

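The 6 miRNAs described here, mmu-miR-451, mmu-miR-144, mmu-miR-126-3p, mmu-miR-126-5p, mmu-miR-150 and mmu-miR-150*, written without the species prefix from here on, are markers of blood and vessel lineages other than the osteoclast. They were chosen by name, as the array annotation spells them, and make up 6 of the 696 mouse miRNAs on the array and 6 of the 334 that any of the arrays detected. The series followed osteoclast formation in culture: marrow of male C57BL/6 mice aged 6 to 8 weeks was cultured with 30 ng/ml of the macrophage growth factor M-CSF and 30 ng/ml of the osteoclast-inducing cytokine RANKL, and RNA was taken after 1, 3 and 5 days. Each day was represented by 4 independent cultures, each on its own single-color array. All 3 groups received both cytokines and came from the same kind of sorted marrow, and cultures without RANKL or fresh marrow were not analysed here. The labels name no genotype beyond the strain. Before culture, the marrow had been treated with a lysis buffer to remove erythrocytes and sorted to remove B220/CD45R+ and CD3+ cells, which are B and T lymphocytes. The question addressed is how much signal of the erythroid, endothelial and lymphoid miRNAs was present in these sorted cultures after 1 day and how much was left at days 3 and 5.

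A miRNA is a short RNA that is cut from a hairpin precursor and directs a protein complex to messenger RNAs that pair with its seed, the bases near its 5′ end. miR-451 and miR-144 are cut from neighboring hairpins of a single transcript that GATA1 switches on in erythroid cells, and miR-451 is unusual in that Argonaute 2 rather than Dicer completes its processing. miR-126-3p and miR-126-5p are the arms of a hairpin in an intron of Egfl7, a gene of endothelial cells, and are also present in megakaryocytes and platelets. miR-150 and its opposite strand miR-150* come from a single hairpin, and miR-150 accumulates in mature B and T cells, where it targets Myb.

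The mature sequences are shown because they identify which strand each probe set measured and because the seed, in capitals (bases 2 to 8), shows that these are separate miRNAs rather than a family. RefSeq entries on GRCm38.p6 were matched for 4 of the 6 names, and the entries for miR-126-5p and miR-150 are named only.
miR-451 (miR-451a, chr11:78073186-78073207, plus strand): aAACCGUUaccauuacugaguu
miR-144 (miR-144-3p, chr11:78073047-78073066, plus strand): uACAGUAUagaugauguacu
miR-126-3p (miR-126a-3p, chr2:26591402-26591423, plus strand): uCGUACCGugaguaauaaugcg
miR-150* (miR-150-3p, chr7:45121798-45121819, plus strand): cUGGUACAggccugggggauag

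Each of these 4 seeds was shared with 0 other entries among the 1738 mature mouse miRNAs of that table. Every probe for these 4 miRNAs was fully complementary to the sequence shown, with 2 probes each for miR-451, miR-144 and miR-126-3p and 4 for miR-150*. Probe lengths ran from 21 to 22 bases for miR-451, from 19 to 20 for miR-144, from 18 to 19 for miR-126-3p and from 10 to 13 for miR-150*, so the miR-150* probes pair with its 3′ end only. The genes Mir144 and Mir451a lie 99 bases apart on chromosome 11, Mir126a lies within the bounds of Egfl7 on chromosome 2, and no other gene is listed at Mir150 on chromosome 7. Mir451a overlaps Mir451b and Mir126a overlaps Mir126b in the same annotation.

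The values below are of 2 kinds. The total signal is the scanner software's background-subtracted sum over the probes of a miRNA, in arbitrary units and without scaling between arrays, so it can fall below 0. The normalized log2 signal is the total signal after quantile normalization over the 334 detected miRNAs, with values under 1 set to 1 (0 on the log2 scale). Detected means that the scanner software marked the miRNA as above background on that array. Arrays detected between 186 and 276 miRNAs each. Slide 1 carried the arrays of days 1 and 5 and slide 2 those of day 3, so day 3 cannot be told apart from its slide, and the day 5 against day 1 comparison lies within a slide. Day 5 replicate 4 stood apart: 355 of the 696 miRNAs were below 0 on it, against at most 299 on any of the other 11 arrays, and 2.5% of the 362 miRNAs that were detected on no array exceeded 168, where the same share exceeded 28.4 to 82.2 on the others. These arrays measured RNA from whole cultures, in which fewer cells of a type and less of a miRNA per cell cannot be told apart.

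Signal of the 6 miRNAs was concentrated at day 1. Of 24 readings at day 1 (6 miRNAs on 4 arrays), 18 were detected, against 4 of 24 at day 3 and 3 of 24 at day 5. Beside this, the median array detected 252 of the 334 miRNAs at day 1, 214.5 at day 3 and 251.5 at day 5. All 7 later detections of the 6 were miR-451. The other 5 miRNAs were detected on at least 1 array at day 1 and in 0 of 40 readings at days 3 and 5. Among all 334 miRNAs, 14.1% (47) were detected at day 1 and on no later array. Signals were also compared with those of the 362 never-detected miRNAs on the same array, a yardstick chosen after the values were seen. On all 4 day 1 arrays, miR-451, miR-144, miR-126-3p, miR-150 and miR-150* were each above every one of these 362, including the 3 readings of miR-144 and miR-150* that were not marked as detected. miR-126-5p was above all of them on day 1 replicate 2 only. These 362 were picked for lack of detection on the same arrays, so detected readings tend to lie above them, and no support is drawn from this.

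**Figure D1:**
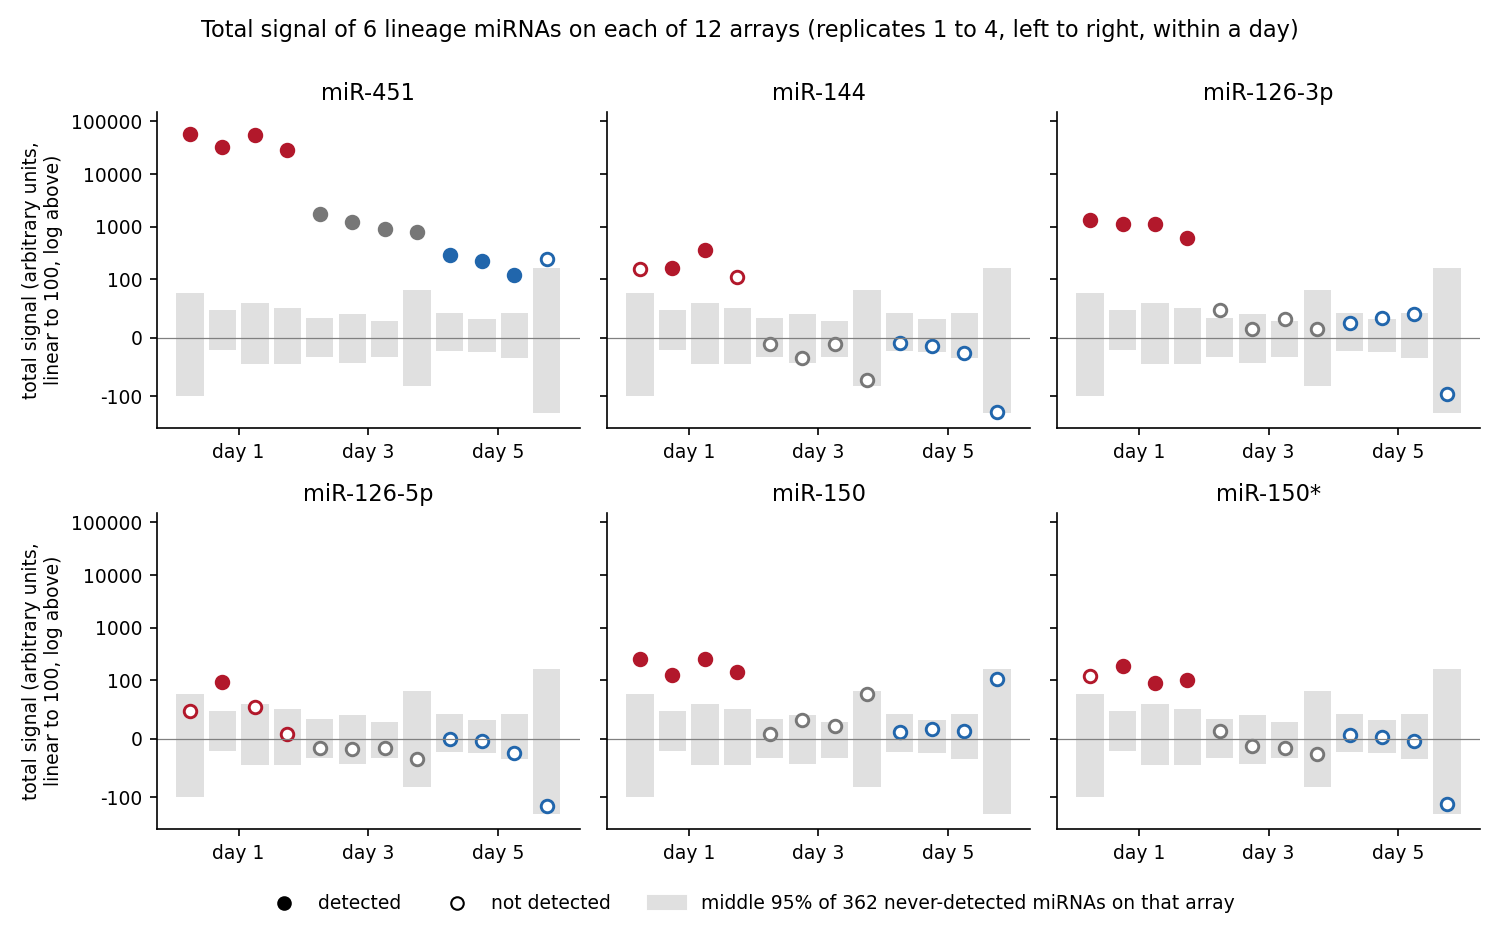
Total signal (arbitrary units, linear up to 100 and logarithmic above) of the 6 miRNAs on each of the 12 arrays, with filled points for detected and open points for not detected readings and grey bars for the middle 95% of the 362 never-detected miRNAs on that array. miR-451 stays above the grey bars on all 12 arrays, whereas the other 5 miRNAs are at or below 107 on every array of days 3 and 5.

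miR-451, which promotes erythroid maturation, was well expressed at day 1 and was the only one of the 6 still detected later. Its total signal at day 1 was 57238, 33319.5, 54061 and 28908 in replicates 1 to 4. At day 3 the total signal was 1771, 1225, 890.1 and 810.0. At day 5 it was 295, 222.7, 124 and 247, and the last of these, on the noisy day 5 replicate 4, was not detected. The 3 days did not overlap: every day 1 culture was above every day 3 culture, and every day 3 culture was above every day 5 culture. Of all 334 miRNAs, 6.59% had every day 5 array below every day 3 array in total signal, and 16.8% after normalization.

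On the normalized log2 scale, miR-451 fell from 14.94 ± 0.25 at day 1 to 10.76 ± 0.36 at day 3 and 7.70 ± 0.44 at day 5 (mean ± SD, n = 4 each). In the limma fit over all 334 miRNAs, the day 5 minus day 1 change was -7.24 (SE 0.25, adjusted p = 8.78e-10), a 152-fold lower signal. The day 3 minus day 1 change was -4.18 (SE 0.25, adjusted p = 1.34e-07 by limma), or 18.1-fold, and the day 5 minus day 3 change was -3.07 (SE 0.25, adjusted p = 1.27e-05 by limma), or 8.37-fold. Exact permutation of the 8 arrays of each pair of days (two-sided) gave p = 0.0286 for each of these 3 comparisons, the smallest it allows. The fall from day 1 to day 5 was the largest among 242 miRNAs with a detection on each of the compared days, ahead of miR-710 at -5.76. From day 1 to day 3 it was again the largest, of 220 miRNAs, and from day 3 to day 5 the third largest of 241.

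The size of the miR-451 fall depended on scaling. From the mean total signal, without scaling, day 3 was 37.0-fold and day 5 195-fold below day 1, and day 5 was 5.28-fold below day 3. Total signals were lower on the day 3 slide in general: 50.9% of the 334 had every day 3 array below every day 1 array before normalization and 29.6% after it. For day 5 the shares were 36.5% and 29.9%. Both miR-451 probes gave the same picture, with the unscaled signal at day 5 188-fold lower for the 21-base probe and 204-fold lower for the 22-base probe, and at day 3 37.0-fold and 37.2-fold lower (geometric means).

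miR-144, the erythroid partner of miR-451, was measured at the edge of detection even at day 1. Its total signal at day 1 was 155.2, 162, 367 and 112 in replicates 1 to 4, and replicates 2 and 3 were the detected ones. At days 3 and 5 all 8 readings were below 0, from -9.63 to -72.3 at day 3 and from -8.82 to -198 at day 5. Thus the 4 day 1 cultures were above all 8 later cultures, and the highest of them, replicate 3, was 3.28-fold above the lowest, replicate 4.

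The normalized log2 signal of miR-144 was 7.10 ± 0.67 at day 1 and 0 on all 8 later arrays, where it rested on the floor. The day 5 minus day 1 difference of -7.10 (adjusted p = 1.79e-09 by limma) is therefore set by the floor and is no measure of size. A replacement was therefore used, in which each reading of a day without detection is raised to the lowest signal detected on its array where that is higher. By it, miR-144 was 5.06-fold lower at day 5 and 4.65-fold lower at day 3. These are no strict bounds, because that lowest signal is not the detection limit of miR-144. On day 1 replicates 1 and 4 miR-144 was undetected at 155.2 and 112, where the lowest detected signals were 19.1 and -2.92. When each array's 5th percentile of detected signal replaced the lowest, the day 5 value was 1.52-fold and no day 3 value above 1 was left. The exact permutation test of whether miR-451 and miR-144 fell by different amounts was not run, because miR-144 was not detected on every array of any day. miR-451 and miR-144 also did not share their order among the day 1 cultures: replicate 1 was highest for miR-451 and replicate 3 for miR-144. Replicate 4 was lowest in unscaled total signal for both. After normalization, replicate 2 was lowest for miR-451, and replicates 1 and 4, both undetected, were tied as lowest for miR-144.

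miR-126-3p, which supports vascular integrity, was detected on all 4 arrays at day 1 and on 0 of 8 afterwards. Its total signal was 1337, 1150.5, 1131 and 608 at day 1. The day 3 readings were 47.1, 15.5, 31.7 and 16.1, and the day 5 readings were 25.3, 33.4, 40.1 and -96.5. The lowest day 1 culture, replicate 4, was still above all 8 later cultures, whose highest reading was 47.1.

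The normalized log2 signal of miR-126-3p was 9.62 ± 0.30 at day 1, 5.08 ± 0.64 at day 3 and 4.32 ± 0.85 at day 5 (mean ± SD, n = 4). The limma changes against day 1 were -4.54 at day 3 (SE 0.43, adjusted p = 5.96e-06) and -5.30 at day 5 (SE 0.43, adjusted p = 1.12e-06). Where readings below the lowest detected signal of their array were raised to it, the signal was 18.0-fold lower at day 3 and 22.1-fold lower at day 5. At the 5th percentile the values were 5.34-fold and 8.72-fold. Some of the undetected readings, such as 47.1 on day 3 replicate 1, were above that lowest signal. They entered the first pair of values as measured, so that pair is no strict bound. Days 3 and 5 overlapped and were both undetected, so no fold is given between them (limma adjusted p = 0.219). The day 3 call was lost when all 696 miRNAs were tested, with an adjusted p of 0.0112. On the 7 later arrays other than day 5 replicate 4, between 6 and 65 of the 362 never-detected miRNAs were above miR-126-3p, so its later readings were in the upper part of the background without standing clear of it.

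miR-126-5p, the other arm of the same hairpin, was near background throughout. At day 1 its total signal was 47.1, 96.7, 54.8 and 7.89, and only the second of these was detected. All 8 later readings were below 0, from -15.3 to -34.2 at day 3 and from -0.30 to -148 at day 5. The day 1 readings were all above the later ones, but 25, 13 and 87 never-detected miRNAs were above replicates 1, 3 and 4. The day 1 signal came from the 21-base probe, at 51.4 ± 26.2 (SD, n = 4), whereas the 20-base probe was at 0.25 ± 15.5.

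After normalization, miR-126-5p was at 3.72 ± 2.58 at day 1, with replicate 4 at the floor, and at the floor on all later arrays. limma gave -3.72 (SE 1.00) for both later days, with adjusted p = 0.00788 at day 3 and 0.00697 at day 5. This call rested on few readings: the groups overlapped at the floor (exact permutation p = 0.143), and the replacement left no value above 1-fold. Of the 21 alternative settings, 14 left the day 5 comparison short of the threshold, among them the comparison within slide 1 (limma adjusted p = 0.0274). Without day 1 replicate 2, the array with the detection, miR-126-5p was not among the miRNAs tested. The exact permutation test of the 3p against the 5p arm was not run for lack of detection.

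miR-150 and miR-150* were detected at day 1 in these cultures, which had been started from marrow depleted of B and T cells. The total signal of miR-150 was 258, 124, 255 and 141.97 at day 1, all 4 detected. It was 8.84, 32.5, 21.8 and 76.0 at day 3 and 12.5, 16.1, 13.8 and 107 at day 5, none detected. The ranges of day 1 and the later days did not overlap, and the highest later reading, on the noisy day 5 replicate 4, was near the lowest day 1 reading. On that array 27 of the 362 never-detected miRNAs were higher.

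The 2 miR-150 probes did not behave alike. The 16-base probe was at 92.9 or above on every day 1 array and at 46.1 or below on every later array. The 15-base probe overlapped between days, with 31.4 as its lowest day 1 value and 61.0 as its highest later value. On the normalized log2 scale miR-150 was at 7.09 ± 0.51 at day 1, 4.08 ± 2.84 at day 3 and 4.01 ± 2.07 at day 5, and day 1 overlapped with both later days, since day 5 replicate 4 reached 6.90 and day 3 replicate 4 reached 6.42. The limma changes against day 1, -3.02 at day 3 (SE 1.37, adjusted p = 0.077) and -3.08 at day 5 (SE 1.37, adjusted p = 0.067), did not pass the threshold of 0.01. Exact permutation gave p = 0.0571 for both. Without day 5 replicate 4, the day 5 change was -2.93 and passed (adjusted p = 0.00712 by limma), as it did under 3 other scalings and another background correction. With readings below the lowest detected signal of their array raised to it, the miR-150 signal was 3.42-fold lower at day 3 and 4.68-fold lower at day 5. Several undetected readings, among them 107 on day 5 replicate 4 and 32.5 and 21.8 on day 3 replicates 2 and 3, were above that signal and entered as measured. At the 5th percentile the day 5 value was 1.52-fold, and none above 1 was left for day 3.

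miR-150*, the opposite strand, had a total signal of 123, 186, 96.1 and 103 at day 1, of which all but the first were detected. Later readings ran from -26.1 to 14.3 at day 3 and from -135 to 6.75 at day 5, with none detected and no overlap with day 1. Each of its 4 probes had its lowest day 1 value above its highest later value, which for the 13-base probe were 27.3 and 9.37. The normalized log2 signal was 6.49 ± 0.49 at day 1, 0.25 ± 0.51 at day 3 and 0 on all day 5 arrays. limma gave adjusted p = 1.07e-08 at day 3 and 5.93e-09 at day 5. Those p-values lean on the floor, which held 3 of 4 readings at day 3 and all 4 at day 5 and so removed most of their spread. By the replacement used for miR-144, the signal was 3.05-fold lower at day 3 and 3.32-fold lower at day 5, again no strict bounds. No value above 1 was left at the 5th percentile. miR-150 was thus detected on 4 and miR-150* on 3 day 1 arrays, and the exact permutation test of their difference was not run because neither was detected on a later day.

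**Figure D2:**
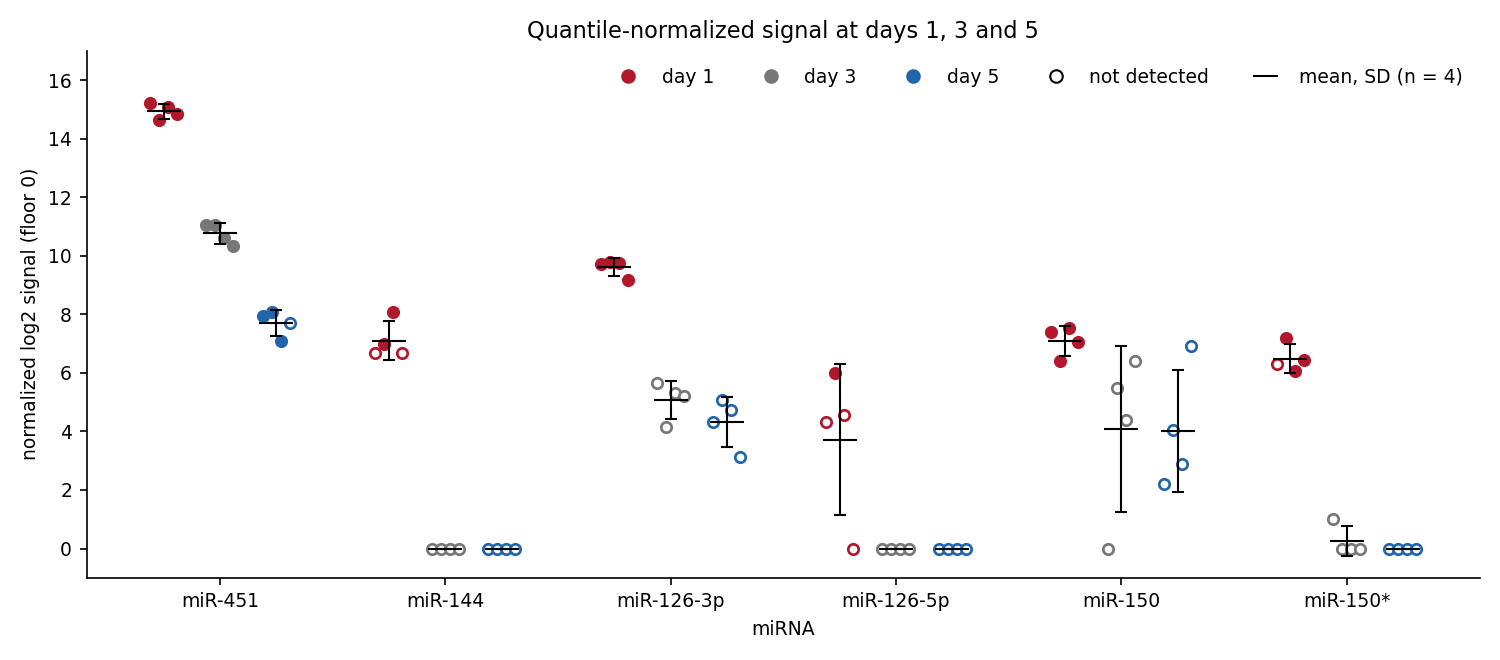
Normalized log2 signal (0 is the floor) of the 6 miRNAs at days 1, 3 and 5, with points for arrays (open where not detected) and bars for the mean and SD of 4 arrays. Only miR-451 shows 3 separate levels, at 14.94, 10.76 and 7.70, and the later points of miR-150 reach up to 6.90.

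**Figure D3:**
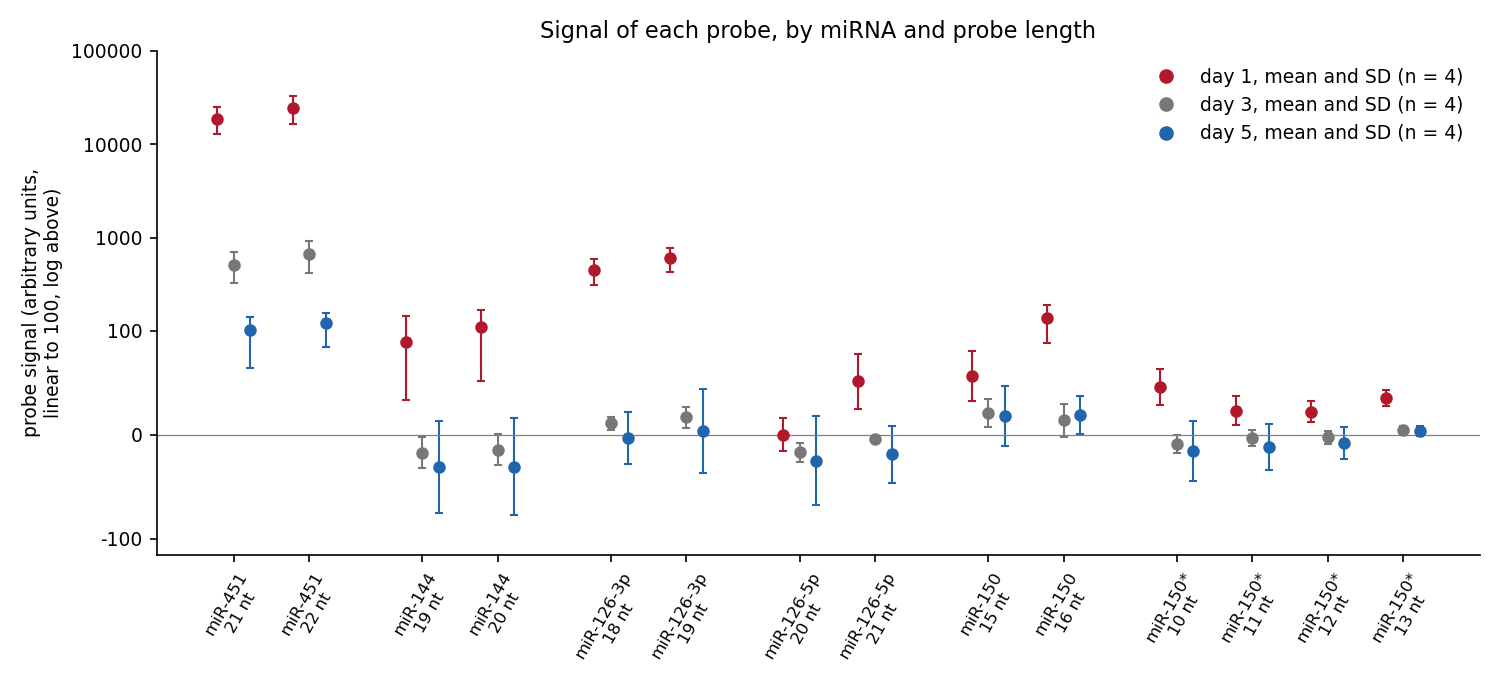
Signal of each probe (arbitrary units, linear up to 100 and logarithmic above), labelled by miRNA and probe length in bases, with the mean and SD of 4 arrays per day. The probes of miR-451 give parallel falls, whereas the 20-base probe of miR-126-5p is at 0.25 at day 1, and the 15-base probe of miR-150 separates the days less than its 16-base probe.

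Counted over the 6 miRNAs, 5 fell from day 1 to day 5 at a limma adjusted p under 0.01, beside 29% of all 334 miRNAs. From day 1 to day 3 also 5 fell, beside 25.1% of all, and from day 3 to day 5 only miR-451 fell, beside 10.8% of all. In the F test over the 3 days 5 of 6 changed, beside 62.9% of all. The median change of the 6 was -5.90 from day 1 to day 5 (0.11 over all 334), -4.36 from day 1 to day 3 (0.18 over all) and -0.16 from day 3 to day 5 (0 over all). Of the 6, 5 had entered the test only through day 1 arrays, so a fall was built into their entry and these counts and medians are descriptions, with no support drawn from them. The medians also rest on the floor: with miR-451 at its measured change, 4 miRNAs at the replaced values above and miR-126-5p, which has none, at 0, the median was -2.28 for day 5 and -1.997 for day 3. When all 696 miRNAs were tested regardless of detection, 4 of 6 fell by day 5 (miR-451, miR-144, miR-126-3p and miR-150*, beside 10.2% of all) and 3 of 6 by day 3 (miR-451, miR-144 and miR-150*, beside 9.34% of all). Without the noisy day 5 replicate 4, 5 of 6 fell by day 5, now with miR-150 and not miR-126-5p, beside 30.4% of all. In unscaled total signal, every day 5 array was below every day 1 array for all 6, beside 36.5% of all, and the same held at day 3, beside 50.9% of all.

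The 3 pairs of related miRNAs shared a direction but differed in detection. For the erythroid pair both members fell by limma, with miR-451 still detected on 7 of 8 later arrays and miR-144 on none. For the miR-126 pair the 3p arm had values of 18.0-fold at day 3 and 22.1-fold at day 5 by the replacement above. At the 5th percentile these were 5.34-fold and 8.72-fold, and the 5p arm had no value above 1. For the miR-150 pair the opposite strand passed the threshold and miR-150 itself did not. The later miR-150* readings lay at or near the floor with little spread (SE 0.28), while those of miR-150 varied (SE 1.37), so these calls are not compared. In unscaled total signal, neither strand overlapped between day 1 and either later day (exact permutation p = 0.0286 each). Of all 334 miRNAs, 50.9% likewise had every day 3 array, and 36.5% every day 5 array, below every day 1 array. After normalization, miR-150 overlapped with day 1 on both later days (exact permutation p = 0.0571 each) and miR-150* on neither. Day 5 values by the replacement above were 3.32-fold for miR-150* and 4.68-fold for miR-150.

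The miRNAs whose courses were most like those of the detected members were ranked by the root mean square difference over the 12 arrays, on the normalized log2 scale after subtracting each day 1 mean, among 247 miRNAs detected on all 4 arrays of at least 1 day. For miR-451 the nearest were miR-92a-2* (1.200 log2 units), miR-1967 (1.26) and miR-126-3p (1.31). None of these was detected after day 1, whereas miR-451 was. For miR-126-3p the nearest were miR-882 (1.03), miR-483 (1.10) and miR-1306-3p (1.16), and the last of these fell by 4.54 on the log2 scale from day 1 to day 5 while it was still detected on 4 arrays at day 3 and 3 at day 5. For miR-150 the nearest were miR-3107 (1.49), miR-1196 (1.80) and miR-2182 (1.90).

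miR-3107 is also described here, because the annotation on GRCm38.p6 lists mir-486b as another name of its gene, Mir3107. That gene lies within the bounds of Mir486 on chromosome 8. miR-486 is a miRNA of erythroid cells and was on the list of erythroid markers, but no probe set carried that name. miR-3107 was singled out after its values were seen, from the miRNAs ranked by likeness to miR-150. It also entered the test through day 1 arrays only. A fall was thus built into its choice, and no support is drawn from it. Its total signal was 1066, 674, 998 and 879 at day 1, all detected. At day 3 it was 68.1, 86.0, 61.1 and 125.7, and at day 5 51.6, 44.8, 61.4 and 137, none detected. All day 1 cultures were above all later ones. The normalized signal was lower by 2.71 at day 3 and by 3.41 at day 5 on the log2 scale (SE 0.32 each). These differences rest on undetected later readings and are given without a fold.

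Other lineage lists showed other courses from day 1 to day 5. Of the erythroid list, 2 of 4 miRNAs were on the array under these names and both fell, and both members of the endothelial and megakaryocytic list fell, beside 29% of all 334. Apart from miR-451 these had entered the test through day 1 arrays, and the call of miR-126-5p was lost in 14 of 21 settings. Of the 7 lymphoid miRNAs 5 fell, beside the same 29%. Among these, miR-150* had entered the test through day 1 arrays only. The others, miR-181a, miR-181c, miR-181d and miR-155, had changes of -0.80, -1.94, -1.19 and -1.05. miR-181b was at 0.45 (limma adjusted p = 0.0101) and did not pass. miR-155, a miRNA of activated immune cells, and the miR-181 family are also made by myeloid cells. All 5 of these lymphoid miRNAs other than the miR-150 strands were detected on at least 3 of 4 arrays at day 5, which the miR-150 strands were not. At day 3, however, miR-181c and miR-155 were detected on 0 arrays, the same as the miR-150 strands.

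Of the 3 myeloid miRNAs, miR-142-3p and miR-142-5p had changes of 0.57 and 0.10 and did not pass, and miR-223 passed with a lower value at day 5. Some or all of the miR-223 spots were saturated on every array of days 1 and 5, so no fold is given. Of the 5 stromal miRNAs, 4 rose by day 5, beside 31.7% of all 334: miR-199a-3p by 2.23 and miR-199a-5p by 2.72 on the log2 scale, and miR-143 and miR-214. miR-143 was detected on 0 arrays at days 1 and 3 and on 3 at day 5, so its rise was built into its entry. miR-214 was detected on 1 day 1 array and on 3 day 5 arrays, and so entered the test mainly through the day on which it was high. miR-145 had a change of -0.13 and did not pass. Of the 4 stem and progenitor miRNAs, only miR-196a rose. It was detected on 0 arrays at days 1 and 3 and on 2 at day 5, so its rise was built into its entry. miR-10a and miR-10b had changes of -0.44 and -0.02 and did not pass, and miR-196b was detected on no array. The median change was -7.17 for the erythroid list, -4.51 for the endothelial and megakaryocytic list, -1.19 for the lymphoid list, 0.10 for the myeloid list, -0.02 for the stem and progenitor list and 2.72 for the stromal list, beside 0.11 over all 334, with undetected values at the floor where a list holds them.

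Summed total signals per array were compared for the same lists. The erythroid list ran from 29020 to 57393 at day 1, from 738 to 1760.0 at day 3 and from 49.4 to 286 at day 5. The endothelial and megakaryocytic list ran from 616 to 1384 at day 1, and its highest later sum was 31.8. The lymphoid list was at 3555 to 4745 at day 1, 1472 to 1748 at day 3 and 1856 to 2299 at day 5. The myeloid list ran from 101360.0 to 121056 at day 1, from 54177 to 69194 at day 3 and from 77799 to 95580.1 at day 5. Its sums include miR-223, which had saturated spots at days 1 and 5, and are not compared between days. The stromal list ran from 494 to 885 at day 1, from 403 to 519 at day 3 and from 2432 to 3545 at day 5, and the stem and progenitor list from 1271 to 2514, from 617 to 783 and from 984 to 1375. In unscaled signal, the day 5 sums of the erythroid, endothelial and lymphoid lists thus lay below all their day 1 sums. Of all 334 single miRNAs, 36.5% had every day 5 array below every day 1 array. miR-150 gave only 124 to 258 of the lymphoid sums at day 1. The day 5 sums of the stromal list lay above those of day 1, and those of the stem and progenitor list overlapped with day 1. The part that a changing mix of cells had in these values was not tested, since no cells were counted on these arrays.

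**Figure D4:**
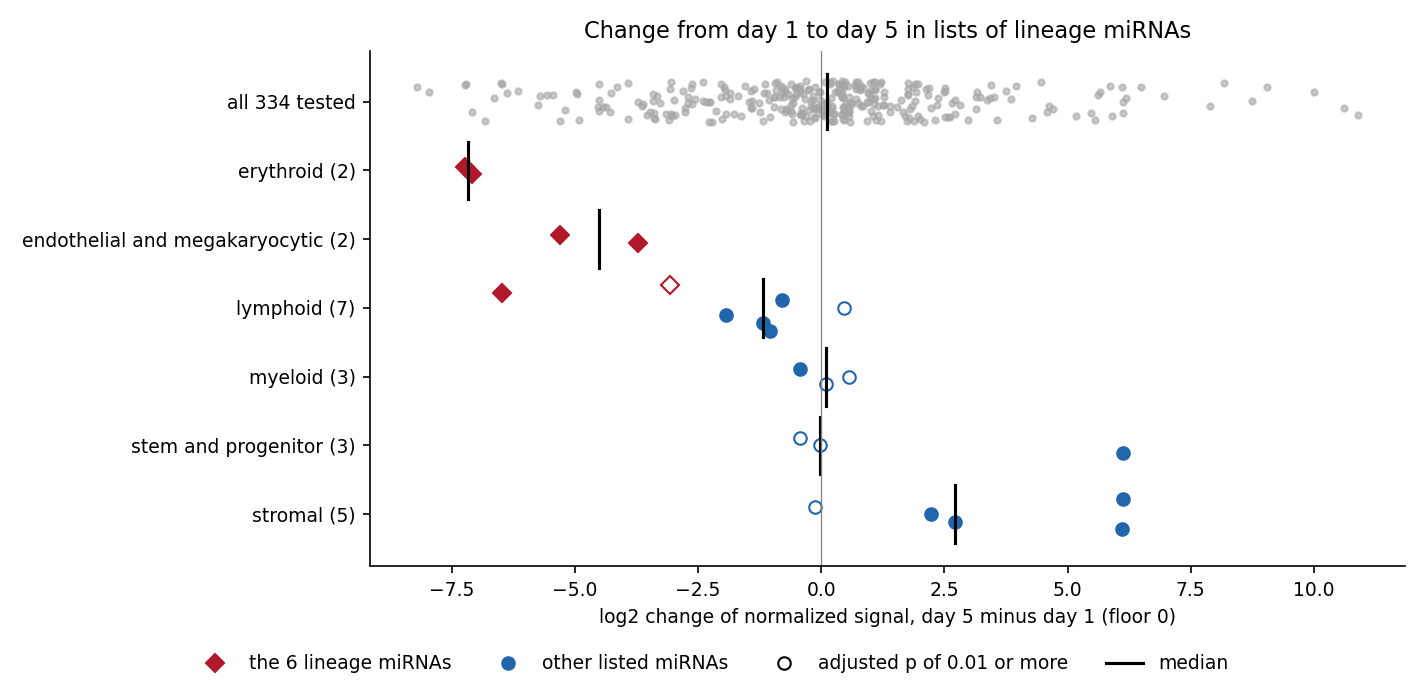
Change in normalized log2 signal from day 1 to day 5 for all 334 tested miRNAs (grey) and for the members of 6 lineage lists, with red diamonds for the 6 miRNAs described here, open symbols for an adjusted p of 0.01 or more and black bars for medians. The red diamonds all lie at -3.08 or below, while the myeloid median is 0.10 and the stromal median 2.72.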

How the data were processed

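Total RNA from 12 cultures was labelled with Cy3 and hybridized to single-color Agilent mouse miRNA arrays, 4 per time point. Scanner files from the authors hold intensity on a linear scale, extracted with Feature Extraction 9.5.3.1: a background-subtracted total per miRNA, unscaled between arrays, and a detection mark. A second file that the authors deposited gives log2 signal, quantile normalized by them in GeneSpring and left blank for undetected readings. It served as an alternative only.

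For the 334 miRNAs that any of the 12 arrays detected, totals were quantile normalized (limma 3.58.1, R 4.3.3), floored at 1 and log2 transformed. The floor held 9.28% of the values. A mean per day was fitted with lmFit and eBayes over all 334, and p-values were adjusted by Benjamini-Hochberg with a threshold of 0.01. Each of the 6 was also compared by exact permutation, two-sided, of 4 arrays against 4. The fit was also run on simulated data to which no floor was applied, so that run cannot speak to readings at the floor. Precision is limited by the 4 arrays per day.

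The named miRNAs are the 6, all miRNAs of the lineage lists, and the 3 most similar courses for each of the 6 detected on all 4 arrays of at least 1 day. The 6 miRNAs and the lists were chosen with earlier results of these data known. Alternatives changed the filter, scaling, signal, background correction, floor, threshold, replicate block, slide and test, and left out each array. No column lacked a labelled sample. Groups and replicate numbers came from the sample titles.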

Additional observations from a re-analysis of the deposited data

Results flagged for a closer look

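Of 13 groups of 4 normalized values examined, 2 held an array that lay apart from the other 3, and chance would place about 1 in 20 groups of untied values there. miR-126-3p in day 1 replicate 4 was the lowest of its day at 9.18 on the normalized log2 scale, with the nearest other array at 9.73 and the highest at 9.80; it was detected and lay above all later arrays. miR-150* in day 3 replicate 1 was at 1.02, with the other 3 arrays at the floor of 0, and was not detected. With 3 values tied at the floor, any reading above it would lie apart, so that chance rate does not apply to this group.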

How the results depend on the processing

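Over 24 alternatives for day 5 against day 1 and 23 for day 3 against day 1, miR-451 kept its direction and its call, with changes from -9.59 to -6.10 and from -5.22 to -3.94. miR-144 and miR-150* also kept both in the 22 and 21 alternatives that tested them, but their sizes moved with the floor and background. Requiring detection on all 4 arrays of a day left 3 of the 6 miRNAs and 2 calls in each of the comparisons with day 1 and in the F test. The deposited values left 1 miRNA, miR-451, and 1 call, because the others have empty cells after day 1. Testing all 696 miRNAs gave 3 calls at day 3. miR-126-5p at day 5 lost its call with no filter (-4.08), with normexp background correction (-0.22), and with the replicate block or within slide 1 (-3.72 for both), and leaving out an array gave -4.86 to -3.34. miR-150 at day 5 gained a call with the 75th percentile of miRNAs detected on all arrays (-2.99) or of all miRNAs (-2.68), with no scaling (-2.98), and with normexp (-0.48), and leaving out an array gave -4.79 to -2.56. The cause was not tested. Leaving out an array gave 4 to 5 calls for each comparison with day 1 and for the F test, and 1 for day 5 against day 3. Without day 5 replicate 4 the 5 calls at day 5 included miR-150 in place of miR-126-5p.

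Scaling moved the median change of all 334 miRNAs from day 1 to day 5 from 0.11 to -0.51 (75th percentile of miRNAs detected on all arrays), -0.20 (of all miRNAs) and -0.50 (none), and the numbers that fell and rose from 97 and 106 to 113 and 72, 87 and 82, and 103 and 65. From day 1 to day 3 the median moved from 0.18 to -0.77 without scaling, with 124 falling and 29 rising in place of 84 and 91. All 6 changes stayed below these medians. Deviations of same-numbered cultures were mixed (7 of 12 pairs of arrays correlated above 0.1, with a range from -0.44 to 0.70), so not every pair deviated together and the numbers were not used as pairs; with the replicate block 4 of the 6 were called against day 1 on either day, and the change of miR-451 at day 5 was again -7.24. A block for the slide could not be fitted for day 3. Differences between 2 miRNAs of a hairpin or cluster were not run under any setting, for lack of detection.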
